A study of Mus musculus with 15 samples.

Results

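Histones package DNA into nucleosomes, and the genes described here encode linker histones (H1f0, H1f2, H1f4), which bind the DNA between nucleosomes, and core histones of the H2A and H3 families (H2aw, H2az1, H3c4), around which the DNA is wound. Every probe set of the array whose platform annotation names one of these 6 genes was taken, and 14 of the 22626 probe sets tested qualified. They covered 5 of the 6 genes, against 12393 genes with a probe set of their own on the array. H1f0, the linker histone of non-dividing cells, was the exception and was not analysed here. Of the 14 probe sets, 8 matched 1 gene and 6 were shared with other genes: 3 with further H3 genes, 2 with the H2az1 pseudogene Gm8203 and 1 with Trim17. A shared probe set cannot say which of its genes carried the signal, and each such value is named as shared.

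The arrays measured RNA of primary neural stem cells from female C57/B16 mice aged 6 weeks, grown as neurospheres, which are free-floating cell clusters. The 15 Affymetrix arrays formed 4 groups, which the titles of the samples give: polysomal RNA of cultures given CD95L-T4 (n = 3), total RNA of CD95L-T4 cultures (n = 4), polysomal RNA of control cultures (n = 4) and total RNA of control cultures (n = 4). CD95L-T4 is a trimerised ligand of the death receptor CD95, the time in the protocols is 48 h, and the titles call the replicates biological. Polysomal RNA, which is bound by several ribosomes, was extracted with phenol and chloroform and carries the molecule label polyA, whereas a column kit was used for total RNA, labelled as total, so RNA fraction, extraction and label cannot be told apart. With bulk RNA, fewer cells of a type and less RNA per cell cannot be told apart either.

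Most core and linker histone mRNAs are replication-dependent: they are made in S phase, when new DNA needs packaging, and they end in a stem-loop bound by the protein SLBP instead of a poly(A) tail. H1f2, H1f4, H2aw and H3c4 belong to this class, which had 10 of the 14 probe sets. Variant histones such as H2A.Z, the product of H2az1, are made throughout the cell cycle from ordinary polyadenylated mRNAs and are placed at promoters and other sites by dedicated chaperones; H2az1 had the other 4 probe sets.

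The promoters of the 5 measured genes are shown because the text compares their transcripts throughout. Each sequence holds the 150 bases before the annotated start (RefSeq, GRCm38.p6), 5′ to 3′ on the gene's own strand, with every match on either strand to AAACACA (the H1 box of linker histone promoters), CCAAT and TATAAA in capitals.
H1f4, chr13:23622559-23622708, minus strand: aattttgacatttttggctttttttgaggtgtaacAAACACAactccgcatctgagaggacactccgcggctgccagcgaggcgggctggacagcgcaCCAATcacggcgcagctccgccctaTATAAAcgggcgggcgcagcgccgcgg
H1f2, chr13:23738657-23738806, plus strand: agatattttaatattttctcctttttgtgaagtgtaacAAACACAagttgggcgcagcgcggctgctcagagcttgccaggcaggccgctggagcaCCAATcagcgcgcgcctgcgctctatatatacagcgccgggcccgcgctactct
H2aw, chr11:58954535-58954684, plus strand: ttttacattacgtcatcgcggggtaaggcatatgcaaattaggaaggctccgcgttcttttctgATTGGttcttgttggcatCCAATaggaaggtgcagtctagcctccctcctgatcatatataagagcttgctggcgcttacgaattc
H3c4, chr13:23575613-23575762, plus strand: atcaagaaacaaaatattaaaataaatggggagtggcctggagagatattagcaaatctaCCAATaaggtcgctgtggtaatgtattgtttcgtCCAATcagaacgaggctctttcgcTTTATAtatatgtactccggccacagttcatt
H2az1, chr3:137864337-137864486, plus strand: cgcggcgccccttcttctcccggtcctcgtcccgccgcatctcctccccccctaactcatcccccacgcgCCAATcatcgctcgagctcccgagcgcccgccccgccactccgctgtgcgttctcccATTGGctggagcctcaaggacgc
The H1 box was present in the linker genes H1f4 and H1f2, beginning 115 and 112 bases before the start. Each of the 5 windows held CCAAT at least once. TATAAA began 27 bases before the start of H1f4 and lay on the opposite strand, 32 bases before the start, in H3c4. Over the 32851 promoters of the RefSeq table, 3.53% of such windows held the H1 box, 24.5% held CCAAT, 7.57% held TATAAA and 0.791% held both the H1 box and CCAAT. These matches describe letters in a window and say nothing about binding.

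Across all probe sets, limma (adjusted p under 0.05, Benjamini-Hochberg) called 11603 of 22626 between polysomal and total RNA in CD95L-T4 cultures and 12704 in control cultures, but 0 between CD95L-T4 and control cultures in either fraction. Within a group, arrays correlated with each other at 0.9936 or more, and no pair held the same values. Markers of neural stem cells lay at a median percentile of 86.4 among all probe sets, against 16 for microglia markers and 45.6 for markers of the oligodendrocyte lineage. The 3′ minus 5′ value of the beta-actin control probe sets, a measure of RNA integrity, moved with RNA fraction. It was 0.59 to 1.03 in polysomal RNA and 0.28 to 0.57 in total RNA. The poly-A spike-in controls, RNAs added before labelling, averaged 8.31 to 10.01 in polysomal arrays and 7.50 to 8.71 in total RNA arrays. The part of either in the fraction differences below was not tested.

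**Figure D1:**
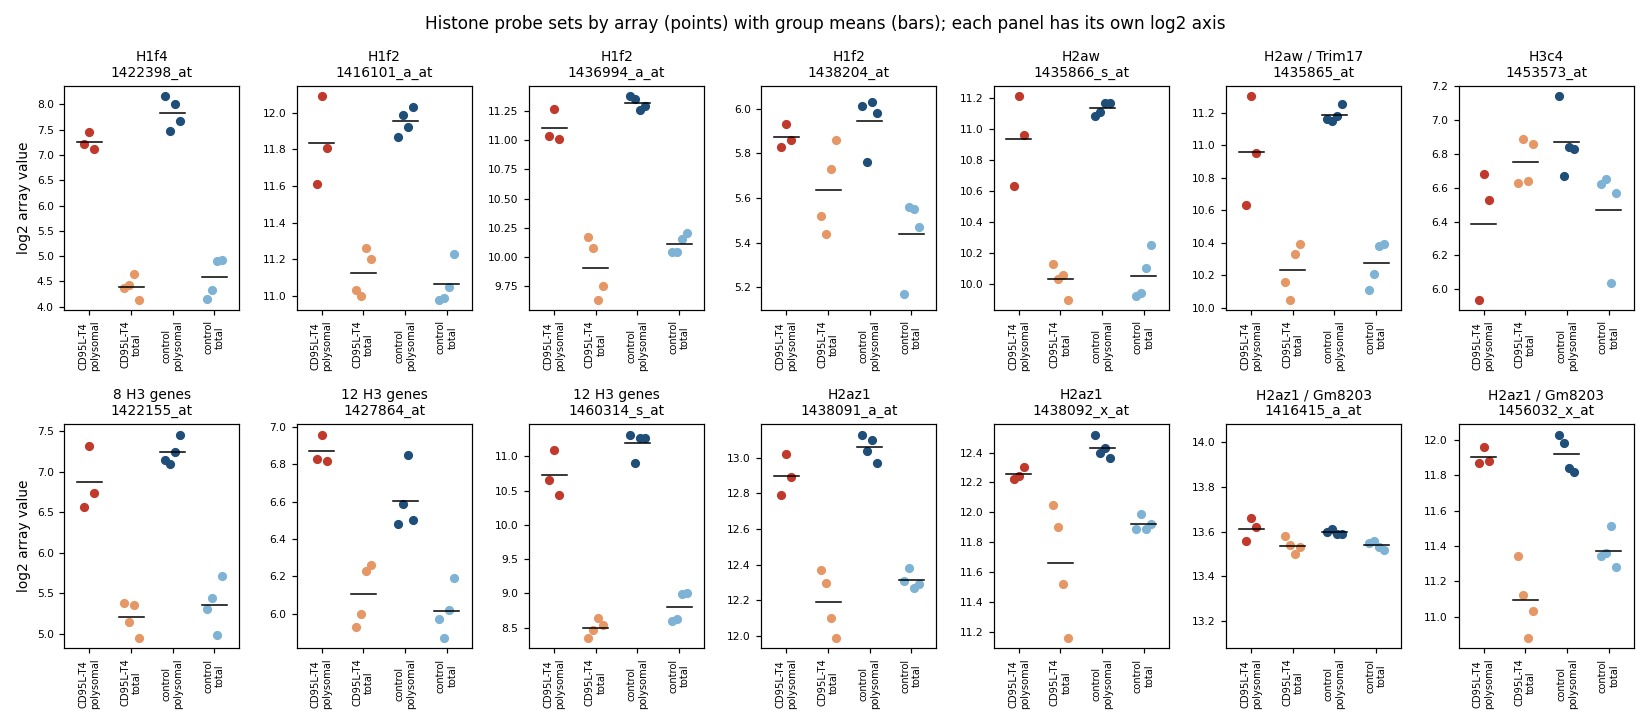
Log2 array value of the 14 histone probe sets, 1 panel each with its own axis, in every array. Points are arrays in the groups CD95L-T4 polysomal, CD95L-T4 total, control polysomal and control total, and bars are group means. In the H1f4 panel the polysomal arrays lie between 7.12 and 8.16 and the total RNA arrays between 4.14 and 4.93.

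The question of the first comparison was how the histone mRNAs on polysomes stood against the same mRNAs in total RNA. Most of their probe sets were higher in polysomal RNA in both kinds of culture. Replication-dependent mRNAs end without a poly(A) tail, while the polysomal samples carry the label polyA and the others the label total. What this meant for the values below was not tested. Of the 14 probe sets, limma called 11 higher in polysomal RNA of CD95L-T4 cultures, where 26.7% of all probe sets were called higher, and 13 in control cultures, where 29.8% were called higher (24.6% and 26.3% of all were called lower). None of the 14 was called lower in either, by limma, and at an unadjusted p under 0.05 the count was 1 in CD95L-T4 cultures, H3c4, and 0 in control cultures. The median log2 difference of the 14 was 0.75 in CD95L-T4 cultures and 0.82 in control cultures, against 0.04 and 0.06 over all probe sets. In control cultures every one of the 14 had all polysomal arrays above all total RNA arrays, a pattern that 28.6% of all probe sets showed; in CD95L-T4 cultures it was 11, against 24.9% of all probe sets. The 2 comparisons share no array.

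H1f4, the replication-dependent linker histone H1.4, led the list. Its log2 values were 7.21, 7.45 and 7.12 in CD95L-T4 polysomal RNA and 4.36, 4.43, 4.64 and 4.14 in CD95L-T4 total RNA. In control cultures they were 8.16, 7.47, 8.01 and 7.68 in polysomal RNA and 4.15, 4.33, 4.9 and 4.93 in total RNA. The fractions were far apart, with the lowest polysomal array well above the highest total RNA array. Polysomal RNA was higher by 2.87 ± 0.19 in log2 (SE), or 7.3-fold, in CD95L-T4 cultures (limma adjusted p = 2.94e-09) and by 3.25 ± 0.18, or 9.53-fold, in control cultures (limma adjusted p = 1.81e-10). In total RNA the probe set was dim, at percentile 22.7 and 25.5 of all probe sets in CD95L-T4 and control cultures. The table used here holds no detection calls, so whether these low values lie above background is unknown, and both folds are ratios of the values as deposited.

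The H3 probe set shared by 12 replication-dependent H3 genes, H3c4 among them (1460314_s_at), came close behind. It read 10.66, 11.1 and 10.44 in CD95L-T4 polysomal RNA and 8.35, 8.47, 8.64 and 8.54 in CD95L-T4 total RNA. Control values were 11.32, 10.91, 11.27 and 11.27 in polysomal RNA and 8.6, 8.62, 8.99 and 9 in total RNA. Again the fractions did not overlap in either kind of culture. The difference was 2.23 ± 0.15 (4.7-fold, rank 5 by size among the 22626 probe sets, limma adjusted p = 2.71e-09) in CD95L-T4 cultures and 2.39 ± 0.14 (5.24-fold, rank 4, limma adjusted p = 2.76e-10) in control cultures. A second shared H3 probe set (1422155_at, 8 genes) stood 1.67 ± 0.18 higher in polysomal RNA of CD95L-T4 cultures and 1.88 ± 0.16 higher in control cultures (limma adjusted p = 3.55e-07 and 2.31e-08). The last of them (1427864_at, the same 12 genes as the first) differed less, by 0.77 ± 0.11 and 0.59 ± 0.10 (limma adjusted p = 1e-05 and 6.11e-05), so probe sets annotated to the same genes disagreed in size.

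H3c4 on its own (1453573_at) behaved otherwise. It had 5.94, 6.68 and 6.53 in CD95L-T4 polysomal RNA and 6.63, 6.89, 6.64 and 6.86 in CD95L-T4 total RNA. In control cultures it had 7.14, 6.67, 6.84 and 6.83 in polysomal RNA and 6.62, 6.65, 6.04 and 6.57 in total RNA. The fractions overlapped in CD95L-T4 cultures and were 0.02 apart or more in control cultures. The polysomal minus total difference was -0.37 ± 0.17 in CD95L-T4 cultures (limma adjusted p = 0.0786) and 0.40 ± 0.16 in control cultures (limma adjusted p = 0.0388). Without CD95L-T4 polysomal replicate 2 the first became -0.52 and passed, as did -0.37 without control total replicate 3, and the second no longer passed on leaving out control polysomal replicate 1, 3 or 4 (0.31, 0.41 and 0.41) or control total replicate 3 (0.26).

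H1f2, the linker histone H1.2, was read by 3 probe sets of its own, all higher on polysomes. The most different of them (1436994_a_at) had 11.04, 11.27 and 11.01 in CD95L-T4 polysomal RNA and 10.17, 10.07, 9.63 and 9.75 in CD95L-T4 total RNA. Its control values were 11.38, 11.36, 11.26 and 11.3 in polysomal RNA and 10.04, 10.04, 10.15 and 10.2 in total RNA. The polysomal arrays were the higher ones without overlap, by 1.20 ± 0.11 (2.3-fold) in CD95L-T4 cultures and 1.22 ± 0.10 (2.33-fold) in control cultures (limma adjusted p = 9.54e-08 and 2.07e-08). The brightest H1f2 probe set (1416101_a_at) differed by 0.71 ± 0.11 and 0.89 ± 0.10. The dimmest (1438204_at) differed by 0.24 ± 0.11 in CD95L-T4 cultures, which did not pass (limma adjusted p = 0.0914), and by 0.51 ± 0.10 in control cultures, which did (limma adjusted p = 0.000434).

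H2aw encodes a replication-dependent H2A. Its own probe set read 10.63, 11.21 and 10.96 in CD95L-T4 polysomal RNA and 10.13, 10.03, 10.06 and 9.9 in CD95L-T4 total RNA. Control cultures gave 11.08, 11.11, 11.17 and 11.17 in polysomal RNA and 9.92, 9.94, 10.1 and 10.25 in total RNA. Polysomal values lay above total values throughout, by 0.90 ± 0.11 (1.87-fold) in CD95L-T4 cultures and 1.08 ± 0.11 (2.11-fold) in control cultures (limma adjusted p = 2.88e-06 and 1.02e-07). The probe set shared with Trim17, whose product is a ubiquitin ligase, gave 0.73 ± 0.13 and 0.91 ± 0.12.

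The variant gene H2az1 was also higher on polysomes in 3 of its 4 probe sets. Its own probe set 1438091_a_at read 12.79, 13.02 and 12.89 in CD95L-T4 polysomal RNA and 12.37, 12.3, 12.1 and 11.99 in CD95L-T4 total RNA. Control values were 13.13, 13.04, 13.1 and 12.97 in polysomal RNA and 12.31, 12.38, 12.27 and 12.29 in total RNA. The groups did not overlap, and the difference was 0.71 ± 0.09 (1.64-fold) in CD95L-T4 cultures and 0.75 ± 0.08 (1.68-fold) in control cultures (limma adjusted p = 3.62e-06 and 6.32e-07). The other own probe set gave 0.60 ± 0.15 and 0.51 ± 0.13. Of those shared with Gm8203, 1456032_x_at gave 0.81 ± 0.10 and 0.55 ± 0.09, whereas 1416415_a_at, at 13.5 to 13.66 in all 15 arrays and percentile 99.5, gave 0.08 ± 0.06 and 0.06 ± 0.06 and was not called (limma adjusted p = 0.329 and 0.414). Near the top of an array's range a probe set has little room to differ, and whether that limited this value was not tested.

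**Figure D2:**
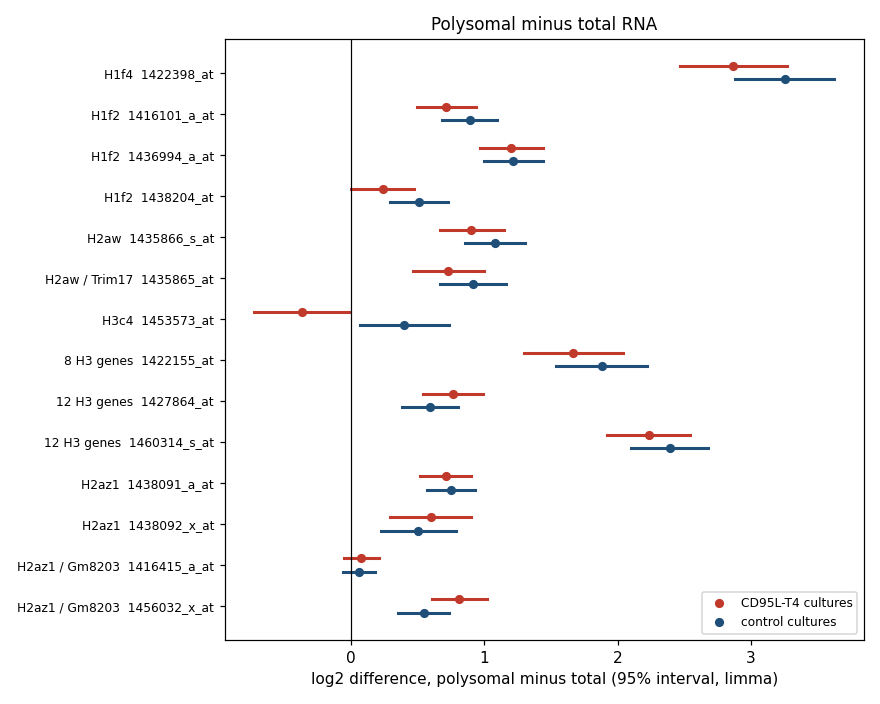
Polysomal minus total RNA log2 difference (x axis) of each histone probe set (y axis), with the 95% interval of limma, in CD95L-T4 cultures (upper point of each pair) and control cultures (lower point). H1f4 lies farthest to the right at 2.87 and 3.25, and H3c4 alone changes side between the cultures, at -0.37 and 0.40.

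By class, the 10 replication-dependent probe sets had a median polysomal minus total difference of 0.83 in CD95L-T4 cultures and 1.0 in control cultures, with 8 and 10 called higher. The 4 variant probe sets had medians of 0.65 and 0.53, with 3 called in each kind of culture. The 37 further histone probe sets on the array were split the same way. Of 15 other replication-dependent ones, 11 were called higher and 1 lower in CD95L-T4 cultures (median 1.0), and 12 higher and 1 lower in control cultures (median 1.20). Of 17 other variant ones, 10 were called higher in each kind of culture (median 0.29 in both), and the remaining 5 belong to germ line histones. No test was made between the classes, because the probe sets of a class share genes and arrays.

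Among these others, a probe set of the H4 genes (1428014_at) stood 2.29 higher on polysomes in CD95L-T4 cultures and 2.69 higher in control cultures, and the H2B probe set of H2bu2 and H2bu1-ps stood 1.92 and 2.26 higher. H2ac19, an H2A gene, gave 1.37 and 1.58 with its first probe set. Counting H1f4 and the shared H3 probe set, the 20 probe sets of largest polysomal excess held 4 histones in CD95L-T4 cultures and 5 in control cultures, and the largest 100 held 5 and 7, from 51 histone probe sets of 22626 tested. Among the 5 largest, 3 and 4 were histones. They include H1f4 and the H4 probe set 1428014_at, both dim in total RNA. The latter lay at percentile 29.9 in CD95L-T4 and 30.5 in control total RNA. The 8-gene H3 probe set, among the 20 largest in control cultures, lay at percentile 32.4 and 34.6. An exception was an H2B probe set shared by 6 genes (1425398_at), which was lower on polysomes, at -0.84 and -0.31 (limma adjusted p = 2.55e-06 and 0.012). Variant genes differed among themselves: Cenpa, the centromeric H3, was higher by 0.89 and 0.99 and H2aj by 0.99 and 1.04 (1424771_at), whereas 0 of 5 macroH2A probe sets were called in either kind of culture (medians -0.03 and -0.13; at an unadjusted p under 0.05, 0 in CD95L-T4 and 1 in control cultures). Of the 5 probe sets of the replacement histone H3.3, all shared by several genes, 3 were called higher in each kind of culture, with medians of 0.23 and 0.15.

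**Figure D3:**
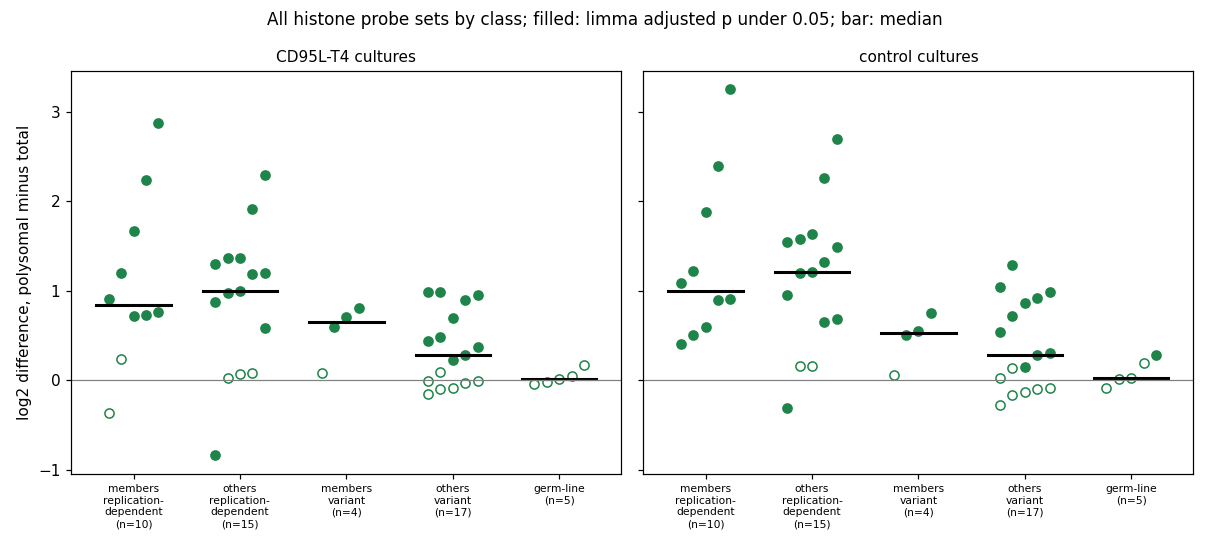
Polysomal minus total RNA log2 difference (y axis) of all 51 histone probe sets by class (x axis), in CD95L-T4 cultures (left panel) and control cultures (right panel). Filled points have a limma adjusted p under 0.05 and bars are medians, which for the replication-dependent probe sets among the described genes are 0.83 and 1.0.

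Lists of genes related to histones, chromatin or S phase were also compared between the fractions. Genes of histone mRNA 3′ end processing were higher about as often as lower. More chaperone and S phase genes were lower than higher on polysomes. Of 15 measured genes of histone mRNA 3′ end processing and turnover, 6 were higher and 6 lower on polysomes in CD95L-T4 cultures, and 6 higher and 7 lower in control cultures, where 33.5% of all genes were called higher and 23.2% lower (29.6% and 21.8% in CD95L-T4 cultures). Lsm10, a subunit of the U7 particle that cuts these mRNAs, was higher by 1.27 and 1.50, and the cap-binding genes Ncbp1 and Ncbp2 stood at -0.70 and -0.78, and at 0.78 and 0.80. Slbp itself, given here for its role, was higher by 0.28 and 0.22 (limma adjusted p = 0.00503 and 0.0143). Of 21 histone chaperone and deposition genes, 3 were higher and 12 lower in CD95L-T4 cultures, and 3 higher and 16 lower in control cultures. Nasp, a chaperone of H1 and H3, was lower, at -0.87 and -0.91, as was Supt16, of the FACT complex, at -0.82 and -0.79. Of 27 S phase genes, 5 were higher and 13 lower, and 4 higher and 14 lower: the ribonucleotide reductase gene Rrm1 stood at -1.12 and -1.14 and the replicative helicase gene Mcm6 at -0.90 and -0.94, while the S phase transcription factor gene E2f1 was higher by 1.23 and 1.39. Of 6 HMG chromatin protein genes, Hmgn3 was higher by 0.48 and 0.54 and Hmgn5 lower, at -0.76 and -1.21, Hmgb3 was higher in CD95L-T4 cultures by 0.28, and the remainder were not called.

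The second question was whether CD95L-T4 changed these mRNAs, first on polysomes. No histone probe set passed there. limma called 0 of 14, as it called 0 of all 22626 (0% called), with 4 of the 14 and 2184 of all probe sets (9.65%) at an unadjusted p under 0.05. The log2 difference of CD95L-T4 against control was below 0 for 12 of the 14, against 48.4% of all probe sets, and the median was -0.19, against 0.01 over all. The polysomal values given above show H1f4 at 7.12 to 7.45 in CD95L-T4 cultures and 7.47 to 8.16 in control cultures, which do not overlap but lie only 0.02 apart at the nearest. Its difference was -0.57 ± 0.19 (95% interval -0.97 to -0.17, limma adjusted p = 0.474). Groups that do not overlap with CD95L-T4 lower were seen for 2 of the 14 probe sets, H1f4 and the H2az1 probe set 1438092_x_at, and for 2.83% of all.

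Among the replication-dependent probe sets, H3c4 alone stood at -0.49 ± 0.17 and the 12-gene H3 probe set 1460314_s_at at -0.46 ± 0.15 (limma adjusted p = 0.474 for both). The 8-gene H3 probe set stood at -0.37 ± 0.18, whereas the remaining shared H3 probe set stood at 0.27 ± 0.11, with CD95L-T4 arrays of 6.83, 6.96 and 6.82 against control arrays of 6.48, 6.59, 6.85 and 6.5. H2aw stood at -0.20 ± 0.11 and -0.23 ± 0.13 for its own and its shared probe set, and the H1f2 probe sets between -0.07 and -0.22. The variant H2az1 stood at -0.16 ± 0.09 and -0.17 ± 0.15 with its own probe sets and at 0.02 ± 0.06 and -0.01 ± 0.10 with the shared ones. The other 15 replication-dependent histone probe sets were all below 0, with a median of -0.32 and 10 at an unadjusted p under 0.05 (5.14% of all probe sets were lower at that level), while the 17 other variant probe sets had a median of 0.00 and 1 at that level. Several of these probe sets read the same genes, among them 4 of the H4 genes. All were measured on the same arrays, so their number does not count separate observations. H2ac19 (-0.48 and -0.46), the H4 probe set 1424854_at (-0.34) and the 6-gene H2B probe set (-0.46) had adjusted p-values of 0.431 to 0.473.

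**Figure D4:**
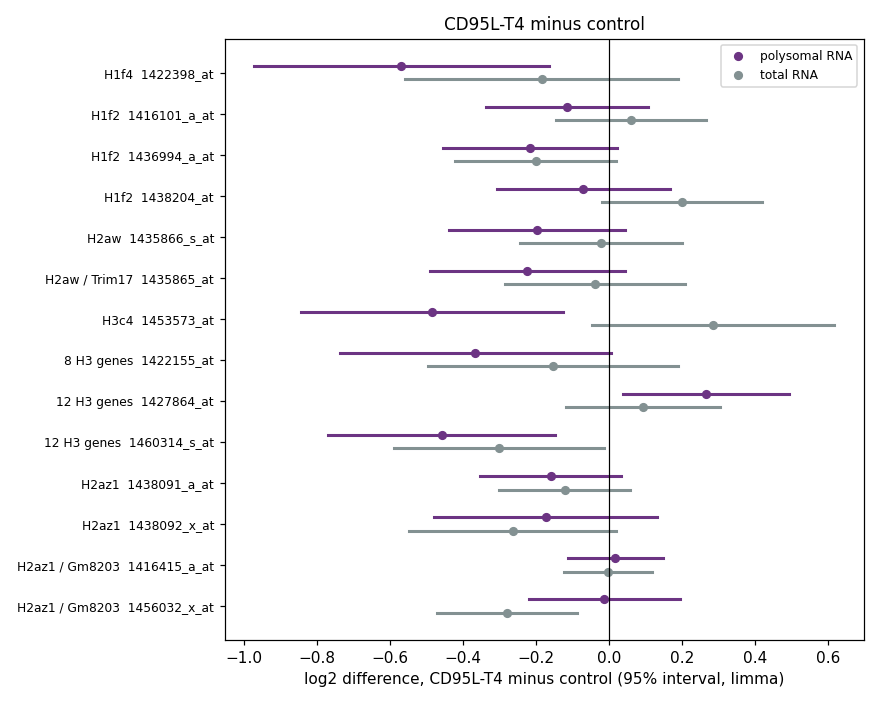
CD95L-T4 minus control log2 difference (x axis) of each histone probe set (y axis), with the 95% interval of limma, in polysomal RNA (upper point of each pair) and total RNA (lower point). H1f4 in polysomal RNA lies farthest to the left at -0.57, and H3c4 lies at -0.49 in polysomal and 0.29 in total RNA; no point has an adjusted p under 0.05.

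The 3 CD95L-T4 polysomal arrays did not behave alike. Set against the control polysomal mean, the median of the 10 replication-dependent probe sets was -0.52 in replicate 1, 0.03 in replicate 2 and -0.28 in replicate 3, and that of the 15 others was -0.40, -0.05 and -0.32. Over all probe sets these medians were 0, 0.002 and 0. The deposited values have nearly equal array medians (6.88, 6.85 and 6.86 in these 3 arrays), so such medians had little room to differ. They do not show whether replicate 2 stood apart in other genes. Replicate 2 also stood apart in the poly-A spike-in controls, RNAs added before labelling, at a mean of 10.01 against 8.31 and 8.45 in the other CD95L-T4 polysomal arrays and 8.56 to 9.17 in control polysomal RNA; its part in the histone values was not tested. The beta-actin 3′ minus 5′ value was 0.59, 0.68 and 1.03 in the CD95L-T4 polysomal arrays and 0.74 to 0.81 in the control ones.

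That replicate is set apart here because its histone values were seen to differ. Lower histone values without it therefore follow at least in part from the choice. The values below are a description only, and leaving out any other array gave 0 probe sets called. Without that replicate, which leaves 2 CD95L-T4 polysomal arrays, limma called 1386 probe sets (6.13%), of which 669 (2.96%) were lower. Of the 14 histone probe sets 1 fell, the 12-gene H3 probe set 1460314_s_at, at -0.64 ± 0.14 (limma adjusted p = 0.0183). H1f4 stood at -0.67 ± 0.22 (adjusted p = 0.0854), H3c4 alone at -0.64 ± 0.18 (adjusted p = 0.053), the 8-gene H3 probe set at -0.59 ± 0.17 (adjusted p = 0.0505) and H2aw at -0.34 ± 0.11 (adjusted p = 0.0748), all by limma. Of the 10 replication-dependent probe sets, 8 were lower at an unadjusted p under 0.05, against 9.91% of all probe sets, and their median was -0.37; the 4 of H2az1 had a median of -0.11 and 1 at that level. Of the 15 other replication-dependent histones, 6 were called lower: both H2ac19 probe sets (-0.63 and -0.65), 3 of the H4 genes (-0.68, -0.48 and -0.45) and the 6-gene H2B probe set (-0.50). Among the 17 other variant probe sets, H2aj (1424771_at, -0.37) and H2az2 (-0.29) were called.

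**Figure D5:**
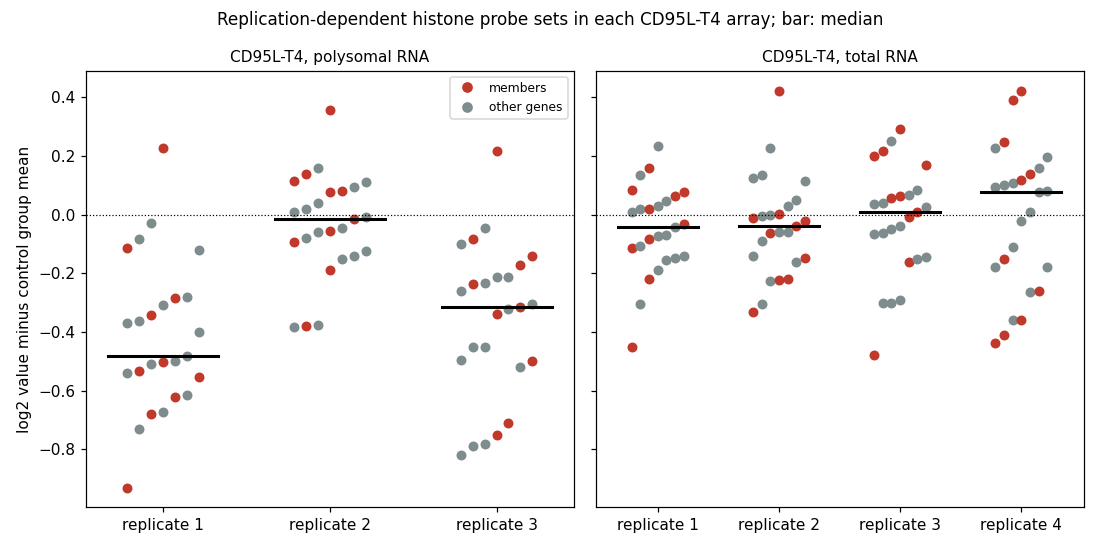
Log2 value of each replication-dependent histone probe set in a CD95L-T4 array minus the mean of the control arrays of the same fraction (y axis), by array (x axis), in polysomal RNA (left panel) and total RNA (right panel). Each column holds 25 points and its median as a bar; the polysomal columns of replicates 1 and 3 lie mostly below 0 and that of replicate 2 straddles it.

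In total RNA no histone probe set passed between CD95L-T4 and control cultures. limma called 0 of the 14 and 0 of all 22626 probe sets (0%), with 2 of the 14 and 846 of all (3.74%) at an unadjusted p under 0.05. The median of the 14 was -0.08, and 10 lay below 0, against 44.5% of all. The H2az1 probe set shared with Gm8203 (1456032_x_at) had 11.34, 11.12, 10.88 and 11.03 in CD95L-T4 total RNA and 11.34, 11.36, 11.51 and 11.28 in control total RNA. The groups overlapped between 11.28 and 11.34, and the difference was -0.28 ± 0.09 (limma adjusted p = 0.997). The 12-gene H3 probe set stood at -0.30 ± 0.14, H1f4 at -0.19 ± 0.18 and H3c4 alone at 0.29 ± 0.16 (limma adjusted p = 0.997 for each). For the 10 replication-dependent probe sets the median was -0.03, and it lay between -0.05 and 0.06 in each of the 4 CD95L-T4 arrays. The 4 H2az1 probe sets were all below 0, with a median of -0.19 and 1 at an unadjusted p under 0.05. Their medians in the 4 CD95L-T4 total RNA arrays were 0.05, -0.02, -0.31 and -0.33, so replicates 3 and 4 were the low ones.

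The interaction asked whether CD95L-T4 acted differently on the fractions, which is also whether polysomal excess differed between the cultures. limma called 0 of the 14 and 0 of all probe sets (0%), with 1 of the 14 and 992 of all (4.38%) at an unadjusted p under 0.05. By direction, 9 of the 10 replication-dependent probe sets (median -0.18), 1 of the 4 of H2az1 (median 0.06) and 15 of the 15 other replication-dependent histone probe sets (median -0.22) lay below 0, against 51.9% of all. The interaction uses the same arrays as the contrasts above, and several of these probe sets share genes. The 1 of the 14 at an unadjusted p under 0.05 was H3c4 alone, at -0.77 ± 0.23 (95% interval -1.26 to -0.28, limma adjusted p = 0.897). H1f4 stood at -0.39 ± 0.26 (95% interval -0.94 to 0.17), so a 1.5-fold smaller polysomal excess under CD95L-T4 lies within its interval. Among the other histones the 6-gene H2B probe set stood at -0.53 ± 0.14 (unadjusted p = 0.00172, limma adjusted p = 0.897). Without CD95L-T4 polysomal replicate 2, set apart for its values as above, the interaction called 2 probe sets, 0 of them histones. At an unadjusted p under 0.05 by limma, 4 of the 10 and 9 of the 15 were then lower, against 7.69% of all probe sets.

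By group, H1f4 averaged 7.26 ± 0.17 in CD95L-T4 polysomal RNA (SD, n = 3), 4.39 ± 0.21 in CD95L-T4 total RNA, 7.83 ± 0.31 in control polysomal RNA and 4.58 ± 0.40 in control total RNA (SD, n = 4 each). Both polysomal groups stood above both total RNA groups, and within a fraction the groups did not pass the test. The same order of fractions held for H1f2 (1436994_a_at), at 11.11 ± 0.14, 9.91 ± 0.26, 11.33 ± 0.06 and 10.11 ± 0.08, and for H2aw, at 10.93 ± 0.29, 10.03 ± 0.10, 11.13 ± 0.05 and 10.05 ± 0.15, with the groups in the sequence just used. H2az1 (1438091_a_at) averaged 12.90 ± 0.12, 12.19 ± 0.18, 13.06 ± 0.07 and 12.31 ± 0.05 in that sequence. H3c4 alone broke the order, at 6.38 ± 0.39, 6.76 ± 0.14, 6.87 ± 0.20 and 6.47 ± 0.29, with CD95L-T4 polysomal RNA lowest and control polysomal RNA highest.

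Over the 15 arrays, after each fraction's mean was subtracted, the members resembled each other in part. H1f4 and the 12-gene H3 probe set 1460314_s_at correlated at a Pearson r of 0.855, the own H2az1 probe sets at 0.886 and the H2aw probe set shared with Trim17 and H1f2 (1416101_a_at) at 0.888. Those were the highest among all pairs of the 14 probe sets, so they are high by selection. The H1f2 probe sets 1416101_a_at and 1436994_a_at, by contrast, gave 0.018. The lowest pair was the shared H3 probe set 1427864_at with the H2az1 probe set 1438092_x_at, at -0.651. Among 15592 brighter probe sets of other single genes, the values most like H1f4 were those of Ift20 (0.862), Tgfbr1 (0.855) and Lce1h (0.849), and for H2aw those of Slc35b3 (0.911), Slc30a9 (0.896) and Natd1 (0.884). For H1f2 they were Tubb2a-ps2 (0.902), Rccd1 (0.898) and Ninj1 (0.884), for H2az1 Wtap (0.95), Eloc (0.933) and Sugp2 (0.932), and for H3c4 Eif1b (0.908), C1qtnf6 (0.885) and Bet1l (0.881). With group means subtracted instead, each of these lists changed at least in part. The genes most like H1f4 were then Gpr108 (0.887), Endod1 (0.881) and Tgfbr1 (0.835). For H3c4 they were Tmem50b (0.869), Slc35c2 (0.865) and Syvn1 (0.864). These coefficients describe 15 arrays that share their processing, and the highest of 15592 are high by selection.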

How the data were processed

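Per the labels, RNA of 15 neurosphere samples was hybridised to Affymetrix mouse arrays by the manufacturer's standard protocol. The deposited values are in log2 and rounded to 2 decimals, and the method of normalization is not given in the sources used here. Array medians were 6.83 to 6.88 in polysomal RNA and 6.92 to 6.98 in total RNA. The main fit used the values without rescaling. Of 22690 rows, 64 Affymetrix controls were left out and 22626 probe sets were tested, of which 20380 carry 1 gene, 691 several and 1555 none in GEO's platform annotation. All columns belonged to mapped samples. Arrays carry no read depth, so their number limits the precision.

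One linear model with a mean for each of the 4 groups was fitted to all 15 arrays (limma 3.58.1, R 4.3.3), with empirical Bayes moderation of the variances on 5.78 prior degrees of freedom. The 5 contrasts were two-sided. The Benjamini-Hochberg adjustment ran over all 22626 probe sets, the threshold was 0.05, and errors of differences are limma's standard errors. The titles call the replicates biological but do not say that they are separate cultures, so p-values measure only the spread between these samples. A gene in a list was represented by its brightest probe set.

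Named were every probe set of the histone genes, up to 3 called members per list and the 3 most similar genes. Where no list member was called, the 1 of smallest p was named: Lsm10 at -0.28, Npm1 at 0.19, Pcna at 0.30 and Hmgn5 at 0.46 for CD95L-T4 in polysomal RNA. Where no other histone probe set passed, the 3 of smallest p were named. Of the 37 others, 21 were called higher and 1 lower on polysomes in CD95L-T4 cultures. In control cultures 23 were called higher and 1 lower, and only some of these are named. Further histone probe sets and Slbp were picked after their values were seen. The members and lists were chosen with earlier results of these data known. Marker lists of 8 cell types were also counted; in control cultures 3 of 12 neural stem cell markers were higher and 5 lower on polysomes.

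On simulated data with 200 changed probe sets of 22626 in 10 draws, 1.5-fold changes were recovered at 75.3% for CD95L-T4 in polysomal RNA, 81.5% in total RNA and 43.5% in the interaction, and 2-fold changes at 97.8%, 98.3% and 88.7%. In the fraction contrasts 75.4% (CD95L-T4) and 78.2% (control) of 1.5-fold changes were recovered. The changed probe sets were picked at random, and the simulated noise was independent between probe sets. It held no deviation shared within an array, so these shares may not hold for the histone probe sets or the real arrays. Alternatives were 3 other scalings, 2 filters on dim probe sets, fitting only the compared groups, a trended robust variance, array weights, a replicate block and leaving out each array.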

Additional observations from a re-analysis of the deposited data

Results flagged for a closer look

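Of 42 groups of 4 arrays tested for a value far from the others (chance gives about 1 in 20), 2 had one. The 12-gene H3 probe set 1460314_s_at read 10.91 in control polysomal replicate 2, below the 11.27 to 11.32 of the other control polysomal arrays, a gap of 0.878 of the group's range. H3c4 alone read 6.04 in control total replicate 3, below the 6.57 to 6.65 of the others, a gap of 0.869 of the range.

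H3c4 alone stood at -0.49 for CD95L-T4 against control in polysomal RNA and at 0.29 in total RNA. The difference of -0.77 between them had an unadjusted p of 0.00396 and did not pass over all probe sets (limma adjusted p = 0.897). The same -0.77 is the difference between its polysomal minus total values in CD95L-T4 cultures (-0.37) and control cultures (0.40). Without control total replicate 3 the polysomal minus total value of control cultures was 0.26.

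The H1f2 probe set 1438204_at stood at -0.07 for CD95L-T4 against control in polysomal RNA and at 0.20 in total RNA. Every CD95L-T4 polysomal array lay below the control polysomal mean and every CD95L-T4 total array above the control total mean. CD95L-T4 total replicate 2, at 5.44 against a mean of 5.438, did so by less than the rounding of the values. The difference of -0.27 had limma adjusted p = 0.897 and did not pass.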

How the results depend on the processing

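Among differences of single probe sets under an alternative, 1601 kept their direction and their side of the threshold. Direction changed for 28, another 8 came to pass the threshold and 4 no longer passed it. Counts of called probe sets have no direction and are not included. Leaving out an array outside a comparison was among the alternatives, and such a fit cannot move that comparison's difference. The 1601 therefore include values that could not have changed direction. Leaving out 1 array at a time gave 0 to 1386 probe sets called for CD95L-T4 in polysomal RNA, 0 to 1 of the 14 histone probe sets there, and 0 to 2 probe sets in the interaction, each maximum without CD95L-T4 polysomal replicate 2. Without the dimmest 50% of probe sets, 8 of the 14 were called higher on polysomes in control cultures, since fewer histone probe sets were tested.

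The H2az1 probe set 1416415_a_at, near 0 in each comparison, changed sign. For CD95L-T4 in polysomal RNA it stood at -0.002 with equal array medians. In total RNA it stood at 0.014 and 0.015 with quantile normalization over all arrays and within each fraction, and at 0 with array weights. Polysomal minus total RNA stood at -0.049 and -0.052 in CD95L-T4 and control cultures with quantile normalization over all arrays, and at 0.166 and 0.15, past the threshold, with equal medians. The cause was not tested. With 1 array left out it ranged from -0.008 to 0.042 (polysomal RNA), -0.017 to 0.01 (total RNA) and -0.005 to 0.045 (interaction). Other values changed sign only with 1 array left out: 1456032_x_at in polysomal RNA (-0.047 to 0.023), H2aw in total RNA (-0.067 to 0.043, and -0.094 to 0.021 for the shared probe set), and, in the interaction, H1f2 1436994_a_at (-0.108 to 0.073) and H2az1 (1438091_a_at -0.104 to 0.023, 1438092_x_at -0.075 to 0.222). Polysomal minus total RNA of H1f2 1438204_at in CD95L-T4 cultures passed the threshold with quantile normalization over all arrays (0.276), equal medians (0.326) and without CD95L-T4 total replicate 4 (0.31).

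Deviations of same-numbered replicates from their group means correlated at -0.234 to 0.197. With 3 or 4 arrays a group this cannot decide whether the numbers pair samples, and the titles do not say. Adding the replicate number as a block left 11 and 13 of the 14 called on polysomes in CD95L-T4 and control cultures and 0 for CD95L-T4 in either fraction.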
